A study of Mus musculus with 4 samples.

Results

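Collagen chains are the building blocks of the extracellular matrix, and each is encoded by its own gene. Mouse genes whose symbol is Col, a type number, the letter a and a chain number were taken as collagen chain genes, a rule that uses the symbol alone. The mouse gene table used to name the probes held 44 such symbols, and 43 of them had a named probe, out of 20956 genes measured (Col12a1 was not analysed here). By the kind of assembly they form, 11 of the 43 encode fibrillar chains, 6 basement membrane network chains, 6 beaded filament chains and 20 the chains of other collagens.

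The cells were 3T3-L1, a clonal line of mouse preadipocytes that turn into fat cells under adipogenic hormones. In knockdown cells lamp2a had been reduced. It encodes the splice form of a lysosomal membrane protein that serves as the receptor of chaperone-mediated autophagy, by which lysosomes take up cytosolic proteins for breakdown. The 4 groups were knockdown cells at day 2, control cells at day 2, knockdown cells at day 0 and control cells at day 0. Day 0 is confluence in medium with 10% serum, and day 2 is the second day in the same medium with an adipogenic mix (insulin at 160 nM, dexamethasone at 250 nM and isobutylmethylxanthine at 0.5 mM). All 4 groups share the line, the serum and the array design. The sources used here do not state how the knockdown and its control were made. A culture kept to day 2 without the mix was not analysed here, so the mix and time cannot be told apart. Each group had 1 array of total RNA, so no difference has a replicate check, no test was run and no p-value is given.

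A collagen molecule is built of chains that wind around each other into a helical rod, which needs glycine at regular intervals and hydroxylated prolines. Fibrillar collagens (types I, II, III, V, XI, XXIV and XXVII) pack side by side into fibrils after their end propeptides are clipped off, whereas type IV collagen keeps its ends and joins into the sheets of basement membranes. Preadipocytes are known as fibroblast-like cells that secrete fibrillar and type VI collagens, and fat cells lie in a basement membrane rich in type IV and type VI collagen.

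A scaled signal is the processed array signal divided by the 75th percentile of its array and multiplied by 1000, and it is compared only between arrays for the same probe. Differences of at least 2-fold in scaled signal are the ones called higher or lower. A gene is bright if its mean level lies above the 95th percentile of 1072 genes for olfactory receptors, a family not known to be active in fibroblasts. By this measure 23 of the 43 collagen genes were bright, and all 23 were well above background on the 4 arrays by the software's mark. Of the 20 dim genes, 10 were well above background on the 4 arrays, 7 on 1 to 3 arrays, and Col10a1, Col13a1 and Col19a1 on none. Repeat spots of bright probes gave an SD of a log2 ratio of 0.065 to 0.075 in the 4 comparisons (227 probes printed 10 times), and those of dim probes 0.31 to 0.41 (172 probes). This spot error holds within these arrays and says nothing of the spread between cultures.

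The targeted gene Lamp2 has a pair of probes, and which splice form either of them reads is not stated in the files. The dimmer one had scaled signals of 3263 in knockdown and 11494 in control cells at day 2, which is 3.52-fold lower, and of 4800.4 in knockdown and 19810.1 in control cells at day 0, 4.13-fold lower. For the brighter one the knockdown was 1.09-fold below control at day 2 and 1.28-fold below it at day 0. The control day 0 array lay on slide 1 and the other 3 arrays on slide 2, and in knockdown against control at day 0 and in the control time course the slide cannot be told apart from the group. The olfactory receptor genes had a median scaled signal of 21.6 to 24.1 on the arrays of slide 2 and of 7.09 on the control day 0 array. Over all genes, the median log2 ratio was 0.12 in knockdown against control cells at day 0, 0.19 for day 2 over day 0 in control cells, and within 0.01 of 0 in the comparisons made within slide 2. Of 9 fibroblast and preadipocyte markers, 8 or 9 were well above background on each array, and their summed scaled signal, to which a few very bright probes add most, lay between 760186 and 817158. Single markers differed more: at day 0 knockdown cells had 2.97-fold less Thy1 signal, and at day 2 they had 2.07-fold less Pdgfrb and at least 8.44-fold less Cd34 signal than control cells. Other markers went up: the log2 ratio of knockdown over control was above 0 for 4 of the 9 at day 2 and for 3 at day 0. The largest were 0.56 for Fn1 at day 2 and 0.77 for Pdgfra at day 0, both under 2-fold. Sums over 4 markers of each other cell type were 2673 to 3463 for macrophages, 2945 to 3918 for endothelial cells, 42.0 to 299.7 for epithelial cells (with Epcam well above background on no array), 5616 to 11790.0 for chondrocytes (of which Matn1 was well above background on none) and 129 to 841 for mature adipocytes. Single genes add most to some of these sums. On knockdown day 2 and control day 0, Sox9 read 11365 and 4941 among the chondrocyte markers. Kdr read 3466 and 2639 among the endothelial ones, and Csf1r 1744 and 2082 among the macrophage ones. All 4 adipocyte markers were higher at day 2 than at day 0 in control cells, Plin1 13.9-fold, Cidec 5.48-fold, Lep 4.68-fold and Adipoq at least 4.66-fold. All 4 are dim, and these ratios include the control day 0 array of slide 1. At day 0 Cidec was 4.69-fold and Lep 3.87-fold higher in knockdown than in control cells. In knockdown cells, within slide 2, the log2 ratios of day 2 over day 0 were 0.75 for Plin1, 0.49 for Adipoq, 0.15 for Lep and -0.55 for Cidec. In knockdown against control cells at day 2, Plin1 was 4.16-fold and Adipoq 3.08-fold lower, and Cidec and Lep had log2 ratios of -0.77 and -0.12. Of the chondrocyte markers in that comparison, Comp was 3.52-fold lower, Sox9 was 1.62-fold higher and Acan had a log2 ratio of -0.04. The part of these marker differences in the results that follow was not tested. In RNA of whole cultures, fewer cells of a type and less RNA per cell cannot be told apart.

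Several collagen genes are neighbours in the genome. In the gene table, ordered by position, Col4a1 is followed directly by Col4a2 on chromosome 8, Col4a6 by Col4a5 on chromosome X, Col6a2 by Col6a1 on chromosome 10, and Col3a1 by Col5a2 on chromosome 1. Type IV genes lie head to head. On the probes used, Col4a1 and Col4a2 ordered the arrays alike here and Col4a5 and Col4a6 did not. The upstream sequences of these pairs are shown, a choice made with the values known. Col4a4, followed by Col4a3 on chromosome 1, forms a further pair, whose genes were both dim and which is not shown. The RefSeq starts of Col4a1 and Col4a2 are only 21 bases apart on opposite strands, and each start lies inside the other gene. These genes thus overlap there, and the bases before the start of each lie within the other. The starts of Col4a5 and Col4a6 are 1343 bases apart, and these genes do not overlap. Sequences are from RefSeq promoter windows of build GRCm38.p6, printed 5′ to 3′ on the strand of the gene. For Col4a1 (chr8:11312954-11312983, minus strand) and Col4a2 (chr8:11312761-11312790, plus strand) the 30 bases around the single CCAAT box are given, which stands 141 bases before the start of Col4a1 and 28 bases before that of Col4a2, with the box in capitals (ATTGG is the box read on the opposite strand). For Col4a5 (chrX:141475169-141475418, plus strand) and Col4a6 (chrX:141474077-141474326, minus strand) the 250 bases before the start are given, with CCAAT boxes and GC boxes (GGGCGG, or CCGCCC on the opposite strand) in capitals.
Col4a1: tgcttgcccgggATTGGcgagccaaggggc
Col4a2: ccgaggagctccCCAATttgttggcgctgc
Col4a5: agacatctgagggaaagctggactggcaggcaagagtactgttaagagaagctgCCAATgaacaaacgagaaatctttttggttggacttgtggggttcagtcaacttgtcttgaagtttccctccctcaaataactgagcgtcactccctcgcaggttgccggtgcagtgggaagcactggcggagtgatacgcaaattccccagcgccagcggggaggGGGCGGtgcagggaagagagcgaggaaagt
Col4a6: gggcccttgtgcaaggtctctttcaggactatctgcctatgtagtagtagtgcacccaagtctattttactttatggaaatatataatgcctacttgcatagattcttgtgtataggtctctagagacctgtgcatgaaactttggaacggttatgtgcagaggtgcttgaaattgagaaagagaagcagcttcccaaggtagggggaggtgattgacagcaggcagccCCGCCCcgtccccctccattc
The 250 bases before each start were searched on both strands for the GC box and the CCAAT box as spelled above. The third motif searched, the start box of many tissue-specific genes, was TATAAA. The reverse of the second motif can share its last bases with a GC box, and no such overlap occurs in the sequences printed. The GC box was found in 22 of 38 windows of 35 collagen genes (57.9%) and in 32.7% of all 32851 windows of the table, the second motif in 34.2% and 33.8%, and the third in 13.2% and 12.4%. These matches are descriptions of letters and not of sites in use.

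Most collagen genes were within 2-fold between knockdown and control cells at day 2, and more of the bright ones passed that size between the days. In knockdown against control cells at day 2, 35 collagen genes could be compared, of which 5 (14.3%) were at least 2-fold higher and 2 (5.71%) at least 2-fold lower, against 2.89% higher and 4.13% lower among all genes compared. Of the 5 higher genes, Col17a1 and Col26a1 were dim. Among the 23 bright collagen genes 3 were higher (Col16a1, Col23a1 and Col27a1) and 2 lower (Col11a1 and Col18a1), against 3.01% and 3.62% of bright genes. Their median log2 ratio was -0.24, and that of all 35 was -0.05, with 21 of the 35 below 0.

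In knockdown against control cells at day 0, 40 collagen genes could be compared, 6 of them with a bound because 1 array was not well above background. Of the 40, 7 (17.5%) were higher and 4 lower, against 18.4% and 4.17% of all genes, so the higher share was near that of all genes. The 7 became 2 with normexp background correction, 0 with quantile and 1 with cyclic loess normalization, and the lower genes were then 3, 4 and 5. Of the bright collagen genes Col4a6 and Col9a2 were higher and Col11a2 and Col20a1 lower, against 5.63% and 3.05% of bright genes. The median of the 40 was 0.17, beside 0.12 over all genes.

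From day 0 to day 2 the bright collagen genes were called more often. In knockdown cells, day 2 over day 0, 39 collagen genes were compared (4 with a bound) and 8 (20.5%) were higher and 6 (15.4%) lower, against 5.00% and 9.09% of all genes. Bright ones made up 7 of the 8 (Col4a1, Col6a1, Col6a2, Col7a1, Col11a2, Col20a1 and Col27a1) and 3 of the 6 (Col4a5, Col8a1 and Col11a1). These were 30.4% and 13% of the 23 bright collagen genes, against 6.17% and 9.24% of all bright genes. In control cells, day 2 over day 0, 37 were compared (4 with a bound) and 11 (29.7%) were higher and 7 (18.9%) lower, against 20.2% and 8.08% of all genes. With normexp 5 were higher and 5 lower, with quantile normalization 4 and 8, and with cyclic loess 6 and 8. The bright ones were 7 higher genes (Col4a1, Col4a2, Col4a6, Col9a2, Col11a2, Col18a1 and Col27a1) and 3 lower genes (Col4a5, Col8a1 and Col16a1). They too were 30.4% and 13% of the 23, against 7.68% and 7.67% of all bright genes. The 2 time courses have no array in common. Called higher in both were Col4a1, Col11a2 and Col27a1, and called lower in both were Col4a5 and Col8a1.

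**Figure D1:**
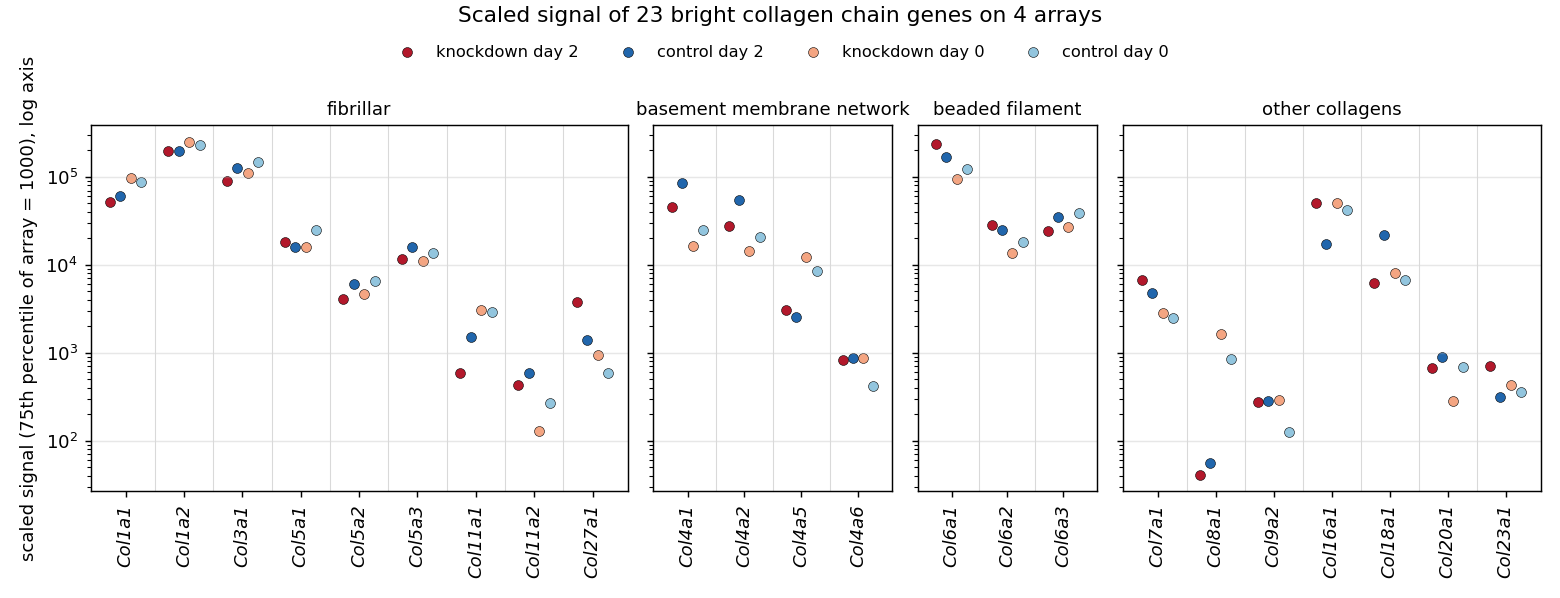
Scaled signal (log axis, 75th percentile of each array set to 1000) of the 23 bright collagen chain genes, by class, with 1 point per array for knockdown day 2, control day 2, knockdown day 0 and control day 0, from left to right within a gene. Levels of different genes come from different probes and are not comparable. The points of Col1a2 lie close together, the day 2 points of Col4a1 and Col27a1 lie above their day 0 points, and those of Col4a5 and Col8a1 lie below.

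Type I collagen, the main fibril of skin, bone and tendon, is made of the chains of Col1a1 and Col1a2. Col1a1 had scaled signals of 51999.6 in knockdown and 61338 in control cells at day 2, and 97538 in knockdown and 86709 in control cells at day 0. Both day 2 arrays were lower than both day 0 arrays, by 1.88-fold in knockdown and 1.41-fold in control cells. Col1a2 had 195180.0 in knockdown and 197182 in control cells at day 2, and 248672 in knockdown and 233544 in control cells at day 0, and here too the day 2 arrays were the lower ones, by 1.27-fold in knockdown and 1.18-fold in control cells. Neither gene reached 2-fold in any comparison, but the log2 ratio of Col1a1 in the knockdown time course ranged from -1.17 to -0.84 over all settings and passed that size with quantile and cyclic loess normalization. Between knockdown and control cells, the larger difference of Col1a1 was -0.24 (log2) at day 2 and that of Col1a2 was 0.09 at day 0.

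Type III collagen, a homotrimer of the Col3a1 chain, mixes with type I in the fibrils of soft tissues. Col3a1 had 90928 in knockdown and 127902 in control cells at day 2, and 111512 in knockdown and 147468 in control cells at day 0. Both knockdown arrays were lower than the control array of the same day, by 1.41-fold at day 2 and 1.32-fold at day 0. Type V collagen starts new type I fibrils and sets their width. Its chain gene Col5a2, the neighbour of Col3a1, had 4063 in knockdown and 6022 in control cells at day 2, and 4656 in knockdown and 6519 in control cells at day 0, a ratio of knockdown to control that is 1.48-fold down at day 2 and 1.40-fold down at day 0. Col5a3 had 11655 in knockdown and 15771 in control cells at day 2, and 11191 in knockdown and 13671 in control cells at day 0, which is likewise 1.35-fold down in the knockdown at day 2 and 1.22-fold down at day 0.

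The remaining type V chain, Col5a1, did not follow them. Its scaled signals were 18352 in knockdown and 15897 in control cells at day 2, and 15934 in knockdown and 25063 in control cells at day 0, so the control day 0 array stood above the other 3. Knockdown cells were 1.15-fold above control cells at day 2 and 1.57-fold below them at day 0. None of these differences reached 2-fold.

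Col11a1, Col11a2 and Col27a1 encode fibrillar chains best known from cartilage, where type XI collagen seeds type II fibrils. Col11a1 had 594 in knockdown and 1503 in control cells at day 2, and 3098 in knockdown and 2873 in control cells at day 0. It was lower at day 2 in both kinds of cell, 5.21-fold in knockdown and 1.91-fold in control cells, and at day 2 knockdown cells were 2.53-fold below control cells. At day 0 the 2 kinds of cell read 1.08-fold apart. The difference of the time courses, as a difference of log2 ratios, was -1.45.

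Col11a2 went the other way with time. Its scaled signals were 429 in knockdown and 595 in control cells at day 2, and 129.7 in knockdown and 271 in control cells at day 0, which is 3.31-fold higher at day 2 in knockdown cells and 2.20-fold higher in control cells. At day 0 knockdown cells were 2.09-fold below control cells. Under normexp background correction that ratio was -0.92 and the control time course 0.96 on the log2 scale, both short of 2-fold, and over all settings the control time course lay between 0.81 and 1.20.

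Col27a1, whose product forms thin fibrils, had 3762 in knockdown and 1392 in control cells at day 2, and 947 in knockdown and 589 in control cells at day 0. The order of the 4 arrays was the same with time and with knockdown: each day 2 array read above the day 0 array of its cells, and each knockdown array above the control array of its day. It was 3.97-fold higher at day 2 in knockdown and 2.36-fold higher in control cells, and 2.70-fold above control cells in the knockdown at day 2. Knockdown was 1.61-fold higher at day 0, short of the 2-fold size.

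The other fibrillar genes were dim. Col2a1, the type II chain of cartilage, had 21.4 in knockdown and 30.7 in control cells at day 2, and 95.5 in knockdown and 30.3 in control cells at day 0, so the knockdown day 0 array alone stood above the rest. Col24a1 was well above background only on the knockdown day 0 array, where it read 12.5. Over the 10 fibrillar genes compared at day 2 the median log2 ratio of knockdown over control was -0.45, with 8 of 10 below 0, 1 called higher and 1 called lower. Over all genes compared at day 2 the median was -0.01, with 9412 of 18561 below 0, and 2.89% were called higher and 4.13% lower.

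**Figure D2:**
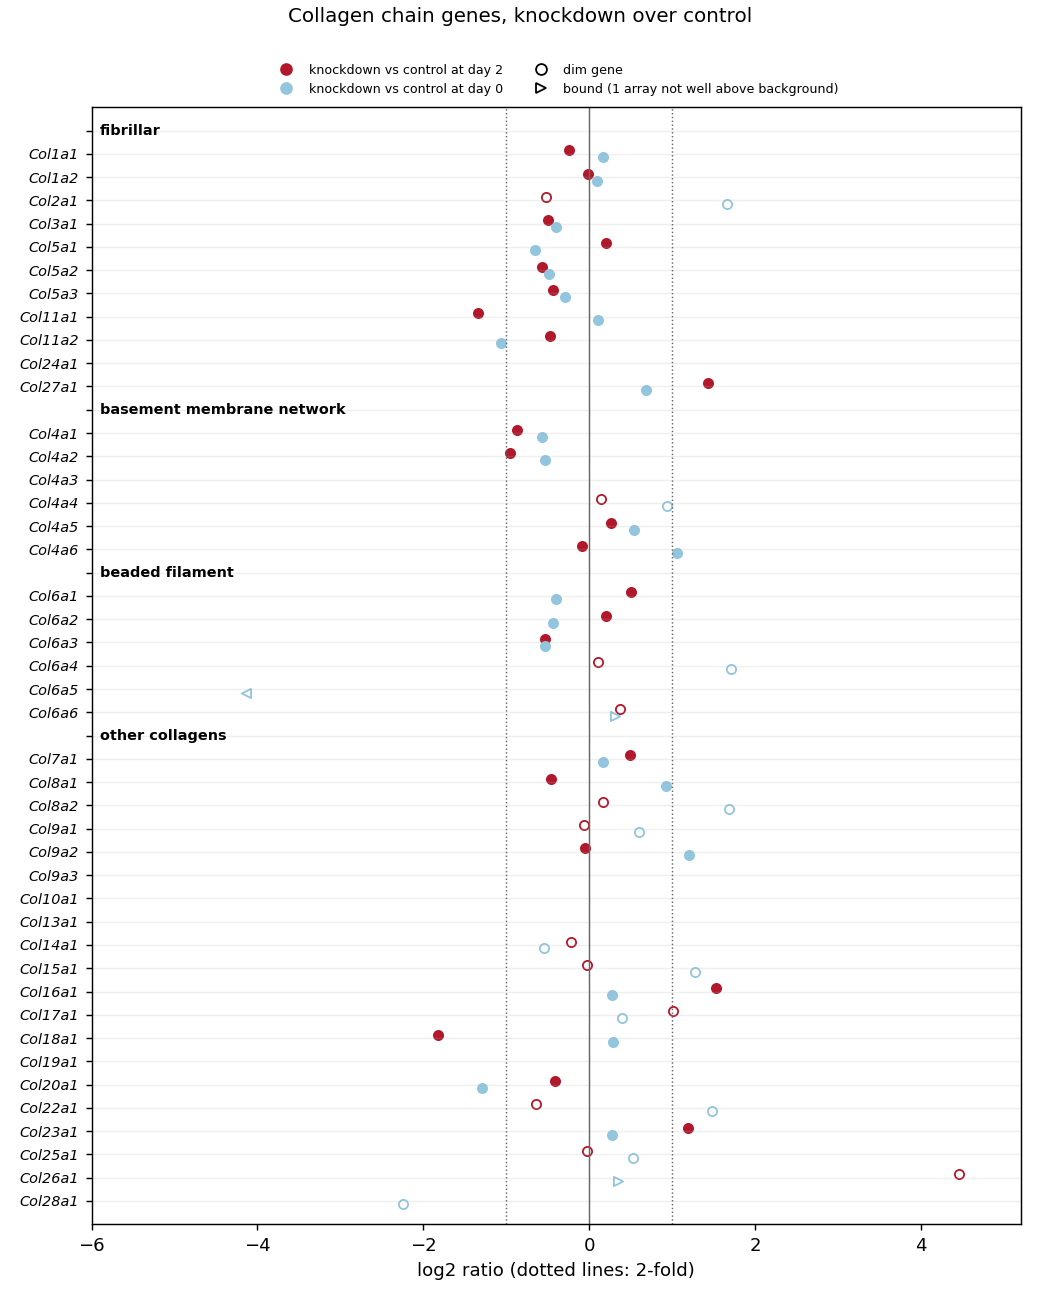
Log2 ratio of knockdown over control cells at day 2 (dark red) and at day 0 (light blue) for each collagen chain gene, by class. Filled points are bright genes, open points dim genes, triangles are bounds, and dotted lines mark 2-fold. A missing point stands for no ratio or for a bound of 0. At day 2 Col16a1, Col23a1 and Col27a1 lie beyond the right line and Col11a1 and Col18a1 beyond the left among bright genes. The dim gene Col26a1 lies at 4.45.

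Type IV collagen of nearly all basement membranes consists of the Col4a1 and Col4a2 chains. Col4a1 had scaled signals of 45991 in knockdown and 84200.4 in control cells at day 2, and 16588 in knockdown and 24605 in control cells at day 0, and Col4a2 had 28019 in knockdown and 54398 in control cells at day 2, and 14427 in knockdown and 20949 in control cells at day 0. Both genes, whose upstream CCAAT boxes are shown above, ordered the arrays alike: highest in control day 2, then knockdown day 2, control day 0 and knockdown day 0. In knockdown cells Col4a1 was 2.77-fold and Col4a2 1.94-fold higher at day 2 than at day 0. Knockdown cells were below control cells at both days. The ratios were 1.83-fold lower for Col4a1 and 1.94-fold lower for Col4a2 at day 2, and 1.48-fold and 1.45-fold lower at day 0. None of these 4 reached 2-fold, although Col4a2 at day 2 lay at the line and passed it under normexp background correction.

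The other head-to-head pair shown did not order the arrays alike on the probes used. Col4a5, which joins Col4a3 and Col4a4 in kidney basement membranes and Col4a6 in others, had 3067 in knockdown and 2560.0 in control cells at day 2, and 12287 in knockdown and 8418 in control cells at day 0. Both day 2 arrays were below both day 0 arrays, by 4.01-fold in knockdown and 3.29-fold in control cells. Col4a6 had 833 in knockdown and 882 in control cells at day 2, and 872 in knockdown and 417 in control cells at day 0, with the control day 0 array low and the other 3 close together. It was called above control cells in the knockdown at day 0 (2.09-fold) and higher at day 2 than at day 0 in control cells (2.12-fold). Both calls rest on the control day 0 array of slide 1. The other probe of Col4a6 was well above background on 3 arrays. It read 16.2 in knockdown and 21.6 in control cells at day 2, and 49.7 and 42.2 at day 0. On that probe both day 2 arrays were below both day 0 arrays, as for Col4a5. It was 1.96-fold lower at day 2 than at day 0 in control cells, and with the median of both probes the log2 ratio was 0.06. Col4a6 therefore has no settled direction, and whether its day 2 arrays lie below its day 0 arrays depends on the probe.

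Col4a4 was dim and read 105 in knockdown and 94.7 in control cells at day 2, and 86.8 in knockdown and 45.4 in control cells at day 0, again lowest on control day 0. Another of its probes, well above background on the 4 arrays, gave log2 ratios for knockdown over control cells of -1.34 at day 2 and -1.05 at day 0, where the probe used gave 0.15 and 0.94. On that other probe control day 0 read 103, above knockdown day 0 at 49.7, so Col4a4 has no settled direction. Col4a3 was well above background only on knockdown day 0, where it read 12.8.

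Type VI collagen, a beaded filament around cells of fat, muscle and skin, is assembled from the Col6a1, Col6a2 and Col6a3 chains. Col6a1 had 236403 in knockdown and 167058 in control cells at day 2, and 94249 in knockdown and 124051 in control cells at day 0. Its neighbour Col6a2 had 28594 in knockdown and 24883 in control cells at day 2, and 13502 in knockdown and 18291 in control cells at day 0. The 2 genes ordered the arrays alike, from knockdown day 2 at the top through control day 2 and control day 0 to knockdown day 0 at the bottom. In knockdown cells Col6a1 was 2.51-fold and Col6a2 2.12-fold higher at day 2 than at day 0. In control cells the same ratios were 1.35-fold and 1.36-fold. Quantile normalization brought the knockdown ratios to 0.91 and 0.94 on the log2 scale, under 2-fold, and the control ratio of Col6a1 ranged from -0.03 to 0.49 over all settings.

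Col6a3, the gene of the largest type VI chain, differed from both. It had 23989 in knockdown and 34734 in control cells at day 2, and 27000.2 in knockdown and 39051 in control cells at day 0, with each knockdown array 1.45-fold below the control array of its day. Its log2 ratio of day 2 over day 0 was -0.17 in knockdown and -0.17 in control cells. The 3 chain genes of this collagen thus gave unequal ratios in the same 4 samples.

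The dim beaded filament genes Col6a4, Col6a5 and Col6a6 lie in a row on chromosome 9. Col6a4 read 67.6 in knockdown and 63.0 in control cells at day 2, and 68.2 in knockdown and 20.8 in control cells at day 0. Col6a6 read 24.6 in knockdown and 19.1 in control cells at day 2, and 21.7 in knockdown and 5.29 in control cells at day 0 and was not well above background on control day 0. Its other probe, well above background on the day 2 arrays only, read 42.2 in knockdown and 14.8 in control cells there. On that probe the knockdown was 2.86-fold higher at day 2, and on the probe used 1.29-fold. Col6a5 was well above background only on control day 0, at 148, at least 17.5-fold above knockdown day 0, but its other probe read 4.23 on that array and was not well above background there. Col6a5 is therefore uncertain.

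**Figure D3:**
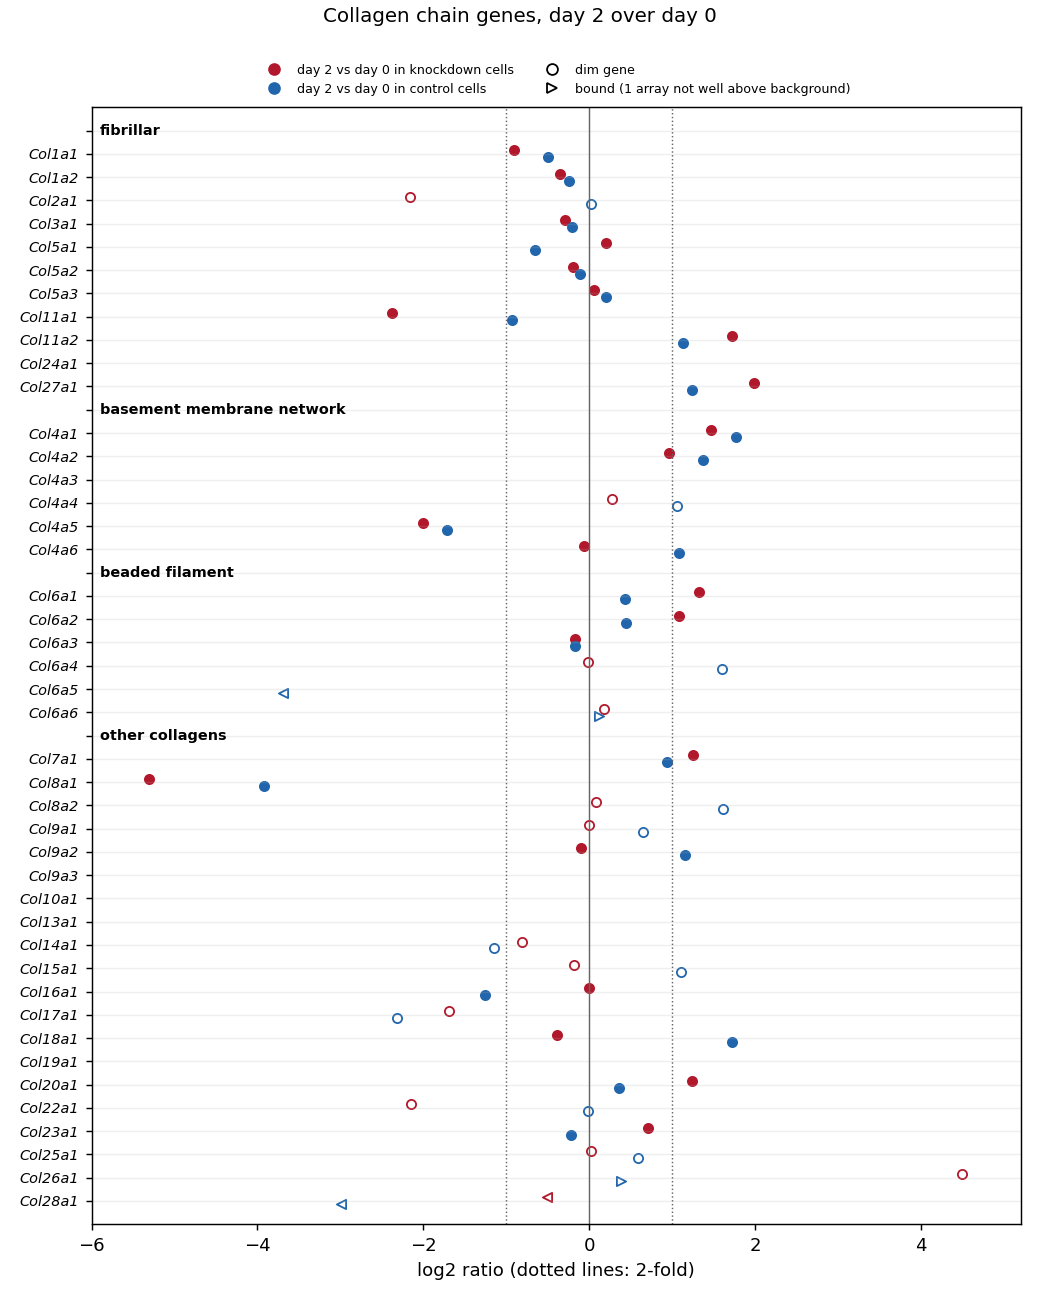
Log2 ratio of day 2 over day 0 in knockdown cells (red) and in control cells (blue) for each collagen chain gene, by class. Filled points are bright genes, open points dim genes, triangles are bounds, and dotted lines mark 2-fold. A missing point stands for no ratio or for a bound of 0. Col8a1 lies farthest left in both kinds of cell among bright genes. Col18a1 lies at -0.39 in knockdown cells and at 1.72 in control cells, and Col16a1 near 0 in knockdown cells and at -1.26 in control cells.

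Among the other collagens, those that sit on fibrils without forming their own (the FACIT group) include Col16a1, which was well measured by 3 probes. Col16a1 had 50196 in knockdown and 17425 in control cells at day 2, and 50324 in knockdown and 41772 in control cells at day 0. The control day 2 array was low and the other 3 lay close together. Col16a1 was 2.88-fold above control cells in the knockdown at day 2, and 2.40-fold lower at day 2 than at day 0 in control cells. In knockdown cells the days read 1.00-fold apart, and at day 0 the knockdown was 1.20-fold higher. Its other probes gave 1.42 and 1.68 for knockdown over control at day 2 and -1.44 and -1.44 for day 2 over day 0 in control cells, on the log2 scale.

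Col18a1, a multiplexin of basement membranes whose end fragment is endostatin, had the opposite arrangement. It read 6188 in knockdown and 21888 in control cells at day 2, and 8129 in knockdown and 6646 in control cells at day 0. Here the control day 2 array was high and the other 3 were close. Control cells were 3.29-fold higher at day 2 than at day 0, whereas knockdown cells were 1.31-fold lower, and at day 2 the knockdown was 3.54-fold below control. The other probe of Col18a1 gave -1.77 for knockdown over control at day 2 and 1.27 for the control time course. The difference of the 2 time courses was -2.11 for Col18a1 and 1.26 for Col16a1, as differences of log2 ratios.

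Over the 33 collagen genes well above background on the 4 arrays, this difference of time courses was at least 1 in size upward for 1 gene, Col16a1, and downward for 10, against 2.85% and 17.0% of all 15465 genes compared. These counts depend on the processing: normexp gave 1 upward and 4 downward, quantile normalization 5 and 5, and cyclic loess 4 and 4. Col16a1 is bright, and the bright genes among the 10 were Col4a6, Col8a1, Col9a2, Col11a1 and Col18a1, so 1 and 5 of 23, against 2.60% and 6.73% of bright genes. The median of the 33 was -0.28 and that of the 23 bright ones -0.09, beside -0.04 over all genes.

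Col8a1 encodes a short chain that builds hexagonal networks under endothelium and around vessels. Its scaled signals were 41.0 in knockdown and 56.4 in control cells at day 2, and 1623 in knockdown and 854 in control cells at day 0. Both day 2 arrays were below both day 0 arrays, 39.6-fold in knockdown cells and 15.1-fold in control cells. The day 2 signals are small, beside olfactory receptor medians of 21.6 and 23.4 on those arrays, and the size of the ratios depends on the processing: over all settings the log2 ratios of Col8a1 ranged from -5.50 to -4.06 in knockdown and from -4.36 to -3.17 in control cells. Among bright collagen genes this was the largest ratio of either time course. At day 0 the knockdown was 1.90-fold higher and at day 2 1.38-fold lower. Its partner Col8a2 was dim, read 162 in knockdown and 145 in control cells at day 2, and 152 in knockdown and 47.2 in control cells at day 0, and showed no such drop.

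Col7a1 encodes the chain of the anchoring fibrils that fix basement membranes to the tissue beneath. It had 6746 in knockdown and 4813 in control cells at day 2, and 2833 in knockdown and 2519 in control cells at day 0, and both day 2 arrays were above both day 0 arrays, 2.38-fold in knockdown and 1.91-fold in control cells. Col20a1, a FACIT chain, had 667 in knockdown and 885 in control cells at day 2, and 281 in knockdown and 689.9 in control cells at day 0. The knockdown day 0 array stood below the other 3, so that the gene was 2.45-fold below control cells in the knockdown at day 0 and 2.37-fold higher at day 2 than at day 0 in knockdown cells. Its other probe gave log2 ratios of -0.73 and 0.86 for these comparisons, in the same directions but under 2-fold.

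Col9a2, a chain of the FACIT collagen on type II fibrils of cartilage, had 274 in knockdown and 283 in control cells at day 2, and 292 in knockdown and 127 in control cells at day 0. As for Col4a6, the control day 0 array was low and the other 3 lay close together. The gene was called higher in knockdown cells at day 0 (2.31-fold) and in the control time course (2.24-fold), and both ratios were under 2-fold with normexp, quantile or cyclic loess processing. The lowest values over the settings were 0.62 in each comparison.

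Col23a1 encodes a chain anchored in the cell membrane. The probe used read 711 in knockdown and 310.2 in control cells at day 2, and 436 in knockdown and 361 in control cells at day 0, with knockdown day 2 above the rest and 2.29-fold higher than control day 2. Its other probes gave log2 ratios of 0.39 and 0.18 for that comparison, and the median over probes was 0.53, so the call rests on 1 probe. Col25a1, another membrane-anchored chain, was dim and read 99.4 in knockdown and 101 in control cells at day 2, and 98.0 in knockdown and 67.7 in control cells at day 0. Col17a1, the hemidesmosome collagen of epithelia, was dim too, read 48.6 in knockdown and 24.1 in control cells at day 2, and 157 in knockdown and 119.6 in control cells at day 0. It was 3.23-fold lower at day 2 in knockdown and 4.97-fold lower in control cells, and 2.02-fold above control cells in the knockdown at day 2. Its control day 2 signal lay near the olfactory receptor median of that array, 23.4, so the size of the ratios that use it is uncertain.

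Col26a1 was singled out after its values were seen. It had 500.4 in knockdown and 22.9 in control cells at day 2, and 22.3 in knockdown and 4.30 in control cells at day 0, and it was not well above background on control day 0. The knockdown day 2 array alone was high, 21.9-fold above control day 2 and 22.5-fold above knockdown day 0, on the single probe of this gene. The control day 2 and knockdown day 0 signals were marked well above background but lay near the olfactory receptor medians of their arrays, 23.4 and 24.1, so the size of both ratios is uncertain.

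The remaining dim genes gave small signals. Col14a1, a FACIT chain of type I fibrils, read 102 in knockdown and 118 in control cells at day 2, and 179.5 in knockdown and 261 in control cells at day 0, and its day 2 arrays were the lower ones in both kinds of cell. In control cells it was 2.21-fold lower at day 2, and at day 0 the knockdown was 1.46-fold below control. Its other probe, well above background on 3 arrays, was 13.6-fold and 2.69-fold lower in these comparisons. Col22a1, a FACIT chain of tissue junctions, read 49.8 in knockdown and 78.0 in control cells at day 2, and 221 in knockdown and 79.1 in control cells at day 0, so knockdown day 0 stood out as it did for Col2a1. Col15a1, a basement membrane multiplexin, read 47.1 in knockdown and 47.9 in control cells at day 2, and 53.7 in knockdown and 22.2 in control cells at day 0, and Col9a1 read 129.7 in knockdown and 135 in control cells at day 2, and 130.4 in knockdown and 86.1 in control cells at day 0. Of the 10 dim genes well above background on the 4 arrays, 6 were lowest on control day 0, the array on which the olfactory receptor genes were also lowest. Called above control cells in the knockdown at day 0 were the dim genes Col2a1, Col6a4, Col8a2, Col15a1 and Col22a1, and called higher at day 2 than at day 0 in control cells were Col4a4, Col6a4, Col8a2 and Col15a1. The part of the slide and of that low background in such ratios was not tested. In knockdown cells, on slide 2 alone, Col4a4, Col6a4, Col8a2 and Col15a1 had log2 ratios of 0.27, -0.01, 0.09 and -0.19 for day 2 over day 0. Col28a1 was well above background only on the day 0 arrays, at 22.0 in knockdown and 104 in control cells, and Col9a3 only on knockdown day 0, at 15.0. Called below control cells in the knockdown at day 0 were the dim genes Col6a5 and Col28a1 (4.76-fold). The dim genes Col6a5, Col14a1, Col17a1 and Col28a1 were called lower at day 2 than at day 0 in control cells.

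Genes that modify, process, cross-link or bind collagen were read from 6 lists with 47 genes, of which 46 had a probe. In knockdown against control cells at day 2, 2 of 45 compared were higher and 2 lower, against 2.89% and 4.13% of all genes, and at day 0 the counts were 2 and 1 of 46, against 18.4% and 4.17%. For day 2 over day 0, 5 of 46 were higher and 5 lower in knockdown cells, against 5.00% and 9.09% of all genes, and 2 of 45 were higher and 8 lower in control cells, against 20.2% and 8.08%. All the called genes were among the 38 bright ones compared. Of all bright genes, 3.01% were higher and 3.62% lower in knockdown at day 2, and 5.63% and 3.05% at day 0. In the time courses the bright shares were 6.17% and 9.24% in knockdown and 7.68% and 7.67% in control cells. The medians of all lists together were 0.06, -0.15, 0.04 and -0.06 in these comparisons.

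The called genes of propeptide clipping went in different directions. Pcolce2, an enhancer of the protease that removes the C-propeptide, had 1351 in knockdown and 204 in control cells at day 2, and 1795 in knockdown and 570.3 in control cells at day 0. Both knockdown arrays were above both control arrays, 6.63-fold at day 2 and 3.15-fold at day 0. Adamts2, the main N-propeptide protease of type I collagen, had 18549.8 in knockdown and 66786 in control cells at day 2, and 34429 in knockdown and 57215 in control cells at day 0 and was 3.60-fold below control in the knockdown at day 2. Its relative Adamts14 had 5765 in knockdown and 2003 in control cells at day 2, and 13074 in knockdown and 6962 in control cells at day 0 and was 2.88-fold higher there. Bmp1, the C-propeptide protease, had 40917 in knockdown and 22067 in control cells at day 2, and 14865 in knockdown and 23987 in control cells at day 0, which is 2.75-fold higher at day 2 in knockdown cells and 1.09-fold lower at day 2 in control cells.

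Of the receptors, Itga11, the integrin chain that binds fibrillar collagen on fibroblasts, had 97.7 in knockdown and 269 in control cells at day 2, and 890.4 in knockdown and 2835 in control cells at day 0. It was lower at day 2 in both kinds of cell, 9.11-fold in knockdown and 10.5-fold in control cells, and knockdown cells were below control cells at both days, 2.75-fold at day 2 and 3.18-fold at day 0. Ddr2, a receptor tyrosine kinase that collagen activates, had 31771 in knockdown and 17589.6 in control cells at day 2, and 14250.1 in knockdown and 17848 in control cells at day 0 and was called higher at day 2 in knockdown cells (2.23-fold). Itga1 was 3.03-fold lower at day 2 in control cells, and Lair1, an inhibitory receptor of immune cells, had 1098 in knockdown and 1115 in control cells at day 2, and 1035 in knockdown and 351 in control cells at day 0, low on control day 0 alone.

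Creb3l1, a membrane-bound transcription factor known to activate Col1a1 in bone, had 1062 in knockdown and 1582 in control cells at day 2, and 4619.8 in knockdown and 7025 in control cells at day 0. Both day 2 arrays were below both day 0 arrays, 4.35-fold in knockdown and 4.44-fold in control cells. In these courses Col1a1 was 1.88-fold and 1.41-fold lower, within the 2-fold size, and a link between these genes was not tested. The cross-linking enzymes Loxl3 and Loxl4 were lower at day 2 in both courses as well: Loxl3 2.42-fold in knockdown and 2.42-fold in control cells, and Loxl4 3.34-fold and 5.71-fold. Lox itself, the main lysyl oxidase, was within 2-fold in every comparison. Plod2, the lysyl hydroxylase of the chain ends, was 3.12-fold higher at day 2 in knockdown and 2.09-fold higher in control cells. In knockdown cells P4ha2, a prolyl hydroxylase subunit, and Plod3, a lysyl hydroxylase that also adds glucose, were 2.02-fold and 2.11-fold higher at day 2. The collagen chaperone Serpinh1 had 46694 in knockdown and 41714 in control cells at day 2, and 76113 in knockdown and 79114 in control cells at day 0, with both day 2 arrays below both day 0 arrays and no ratio at 2-fold. P4ha3, a further prolyl hydroxylase subunit, and Pcolce2 were 2.20-fold and 2.80-fold lower at day 2 in control cells, and Adamts14 was lower at day 2 in both, 2.27-fold in knockdown and 3.48-fold in control cells.

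**Figure D4:**
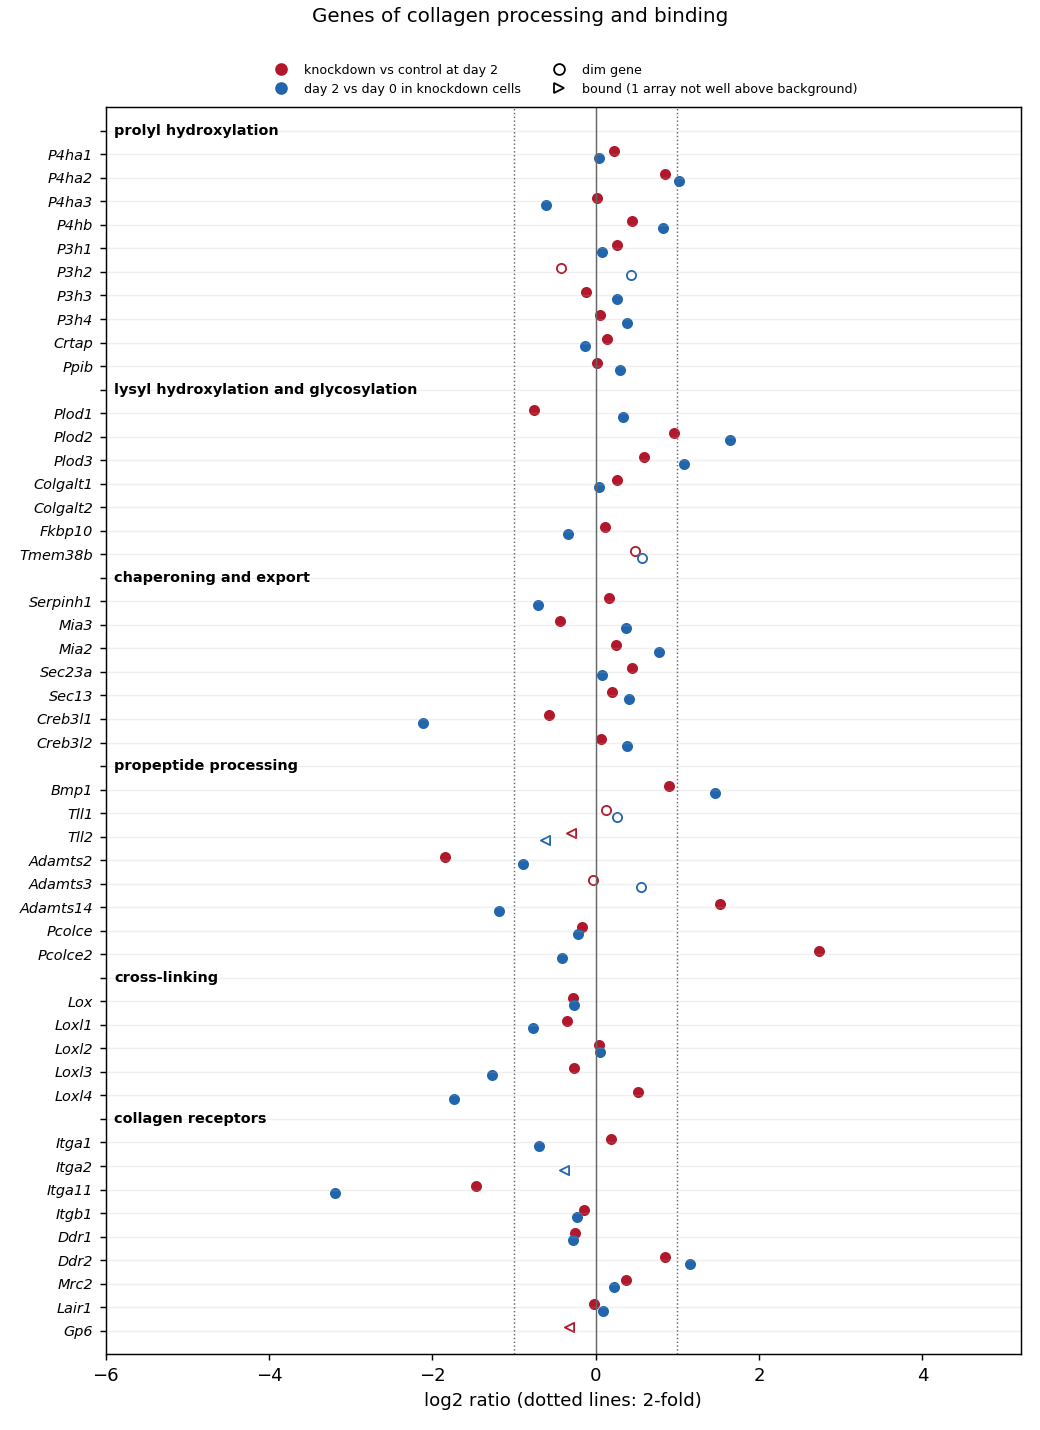
Log2 ratio of knockdown over control cells at day 2 (red) and of day 2 over day 0 in knockdown cells (blue), the 2 comparisons within slide 2, for genes of collagen processing and binding, by list. Filled points are bright genes, open points dim genes, triangles are bounds, and dotted lines mark 2-fold. A missing point stands for no ratio or for a bound of 0. Pcolce2 lies at 2.73 and Adamts2 at -1.85 in red, and Itga11 at -3.19 in blue.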

How the data were processed

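Total RNA of 4 cultures of 3T3-L1 cells was labelled with Cy3 and read on Agilent mouse arrays (design 028005), 1 per group as the labels give it. Per the file headers, Agilent Feature Extraction 10.7.3.1 made the deposited intensity values, which are background-subtracted processed signals, linear and without normalization across arrays. The knockdown day 0 array was not detrended, to judge by its processed signals, which equal the background-subtracted ones at 100% of spots. Each array has 59305 spots that are not controls, of which 156 to 260 outliers were left out, and 0 were saturated.

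The log2 of each deposited intensity minus the 75th percentile of its array was averaged over the spots of a probe. Probes were named through their RefSeq accession in a gene table of build GRCm38.p6 (27656 of 55681 probes matched, with 20972 genes, 20956 after outliers were left out). The probe with the highest mean level stands for its gene, and 14 of the 43 collagen genes, with 63 probes in all, had several. A gene was compared where at least 1 of the 2 arrays was well above background. Where only 1 was, the dim side took its own level or the array's lowest level well above background, whichever was larger, and the ratio is then a bound ("at least"). A bound with the wrong sign counts as 0 and gives no fold. Named genes are those bright and past 2-fold in any comparison, plus 10 chains always named (Col1a1, Col1a2, Col3a1, Col5a1, Col5a2, Col4a1, Col4a2, Col6a1, Col6a2 and Col6a3). The genes, lists and rules were chosen with earlier results of these data known. The number of arrays limits the precision. Calling at 2-fold was tested on simulated data.

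Other settings were normexp background correction (offset 50, on median signals), quantile and cyclic loess normalization (3 iterations), another scaling, other filters and probe rules, outlier spots kept, no detrending and a 1.5-fold size. Chosen after seeing the data were bright genes only and the probe chosen on the 3 arrays of slide 2. Python 3.11.15, numpy 2.4.6, pandas 2.3.3, matplotlib 3.10.9, R 4.3.3 and limma 3.58.1 were used.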

Additional observations from a re-analysis of the deposited data

Results flagged for a closer look

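With 1 array per group, some bright collagen genes moved in opposite directions under the same contrast by more than 2 spot SDs each way. None of these differences was tested. In knockdown against control cells at day 2 and at day 0, the log2 ratios were -0.24 and 0.17 for Col1a1, a difference of -0.41; over all settings its day 0 ratio ranged from 0.062 to 0.353, and with quantile normalization it lay within 2 spot SDs of 0. For Col5a1 they were 0.21 and -0.65, a difference of 0.86. Col6a1 had 0.50 and -0.40, a difference of 0.90, and its neighbour Col6a2 had 0.20 and -0.44, a difference of 0.64. Col8a1 had -0.46 and 0.93, a difference of -1.39. Its day 2 signals of 41.0 in knockdown and 56.4 in control cells are small, and the spot SD of dim probes was 0.31 at day 2. With normexp the day 2 ratio of Col8a1 was -0.067 and the difference -0.89. Col18a1 had -1.82 and 0.29, a difference of -2.11. For day 2 over day 0, in knockdown and in control cells, the log2 ratios were 0.20 and -0.66 for Col5a1 (0.86), -0.39 and 1.72 for Col18a1 (-2.11), and 0.71 and -0.22 for Col23a1 (0.93), whose other probes did not show the first of these. Each of these differences includes the control day 0 array of slide 1, and the part of the slide was not tested.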

How the results depend on the processing

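Of the counts and medians over the collagen genes, 125 values under another setting differed little and the others moved. The median of the control time course, 0.21 as reported, was below 0 with cyclic loess (-0.11) and with quantile normalization (-0.057). Normexp gave 2 genes higher in knockdown at day 0, 5 higher in the control time course with a median of 0.31, and 4 with a downward difference of time courses. Quantile normalization gave 0 and a median of 0 at day 0, 4 in the control time course, and 5 upward and 5 downward differences. Cyclic loess gave 1 and a median of 0 at day 0, 6 in the control time course, and 4 upward and 4 downward differences. The median of the control time course was also 0.27 with scaling to probes well above background, 0.36 over genes above background on both arrays, 0.091 without a filter, 0.056 over all probes of a gene and 0.28 with the probe chosen on slide 2. Without a filter, 11 genes were higher at day 0 with a median of 0.27, and 3 differences were upward. The median over probes gave 4 lower genes and a median of -0.24 at day 2, and a median of -0.10 in the knockdown time course. At 1.5-fold, 5 genes were lower at day 2, 11 higher at day 0 and 9 differences upward. Bright genes alone gave 3 higher and a median of -0.24 at day 2, 2 higher, 2 lower and a median of 0.091 at day 0, 3 lower in the knockdown time course, 7 higher and 3 lower in the control time course, and 5 downward differences. By definition a 1.5-fold size asks for a smaller difference, the filters change which genes are compared, and bright genes alone are fewer genes. Beyond that the cause was not tested.

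Of 29 calls of bright collagen genes, 20 were kept in all 10 other settings that called at 2-fold. The filter settings among them could not change these calls, because the bright collagen genes were well above background on every array. The settings on the choice of probe could not change the calls of genes with a single probe. Among all called genes, 81.6% were higher in knockdown at day 0, against 46.2% with quantile normalization and 50.5% with cyclic loess, and 71.4% in the control time course, against 37.9% and 42.0%. No paired analysis was possible because each group has 1 array. For the same reason the slide as a block was not run, and dim genes are limited by signal over background.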

Other observations

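Among the 23 bright collagen chain genes, the lowest array was knockdown day 2 for 8 genes, control day 2 for 4, knockdown day 0 for 7 and control day 0 for 4. The highest was knockdown day 2 for 5, control day 2 for 7, knockdown day 0 for 7 and control day 0 for 4.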
